A study of Arabidopsis thaliana with 12 samples.

Results

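AT4G13680, AT2G46220, AT1G16080, AT2G40980, AT3G50350 and AT1G07040 are 6 Arabidopsis thaliana genes that carry no name beyond their locus identifier in the TAIR10.1 gene table, out of 689 genes with an array probe of their own. They were chosen because their values were higher in dark prors1 plants than in dark WT plants. The difference between these groups is therefore a description of the chosen genes. Where the text says which of them passed a test fitted across all probes, that too is a description and supports nothing about them. Each gene was measured on 1 probe whose platform annotation names that gene alone, and all 6 probes had values above 0 in enough columns to be analysed.

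The samples were prors1 mutants, which per the labels lack prolyl-tRNA synthetase, and WT plants of ecotype Columbia 0, both dark adapted overnight. Of the 12 samples, 6 are titled prors1 and 6 WT. Groups were taken from these titles, because the source label reads as WT for all 12. No tissue, age, growth condition or prors1 allele is named in the labels.

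Prolyl-tRNA synthetase loads proline onto its transfer RNA, and without loaded proline a ribosome cannot read a proline codon. Plant cells translate in the cytosol, in plastids and in mitochondria, and PRORS1 encodes an enzyme that serves both organelles. Reduced translation in organelles is known to alter transcript levels of nuclear genes, a form of organelle-to-nucleus signalling. None of the 6 genes has a role annotated in the files, so they are described by their measurements.

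The single-channel array holds 3439 probes, and each sample has 1 column of intensities on a linear scale of unknown unit that ends at 100. Columns 1 and 2 of a group, like 3 and 4 or 5 and 6, differed from each other by a median of 0.134 to 0.150 on the log2 scale in prors1 and of 0.214 to 0.227 in WT. Other columns of the same group differed by 0.348 to 0.396 in prors1 and 0.346 to 0.421 in WT. Each such pair was counted as 1 array, giving 3 arrays for prors1 and 3 for WT. Whether different arrays hold RNA of separate plants is not stated, so p-values measure the spread between arrays, which may be technical. Column totals ran from 2632 to 3456 in prors1 and from 2312 to 2840 in WT. The median of the values above 0 was 0.407 to 0.520 in prors1 columns and 0.224 to 0.289 in WT columns, so the bulk of the probes was also brighter in prors1. PRORS1 itself was named on 0 probes, which leaves the titles without a check by the mutated gene. Of 7 green-tissue genes, 5 had a probe of their own, with mean intensities of 0.919 to 33.2 in prors1 and 1.13 to 24.9 in WT. Of 8 root, pollen and seed storage markers, 0 had one. The precision of every value is limited by the number of arrays.

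The 6 genes fall into bright and dim ones. AT2G46220 and AT1G16080 were well measured in both groups. AT4G13680, AT3G50350, AT2G40980 and AT1G07040 lay among the dimmest probes in WT and, in prors1, were brighter than 25.4% to 75.8% of the analysed probes. Such shares place a probe on the array's scale and do not rank transcripts by abundance, since probes differ in brightness. In bulk RNA, a change in the number of cells that express a gene and a change in its RNA per cell cannot be told apart.

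AT2G46220 had a bright probe. It read 8.42, 10.9 and 6.61 on the prors1 arrays, against 0.947, 0.856 and 0.926 on the WT arrays. The means were 8.66 ± 2.2 in prors1 and 0.910 ± 0.048 in WT (SD, n = 3 arrays each), a 9.52-fold ratio as deposited. All 6 prors1 columns, from 5.03 to 11.2, lay above all 6 WT columns, from 0.705 to 1.15. Its readings were uneven on array 3 of both groups. The columns of prors1 array 3 read 5.03 and 8.18, and those of WT array 3 read 0.705 and 1.15, each a 1.63-fold gap. On arrays 1 and 2 the columns differed by at most 1.05-fold in prors1 and 1.08-fold in WT.

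AT2G46220 is also named on a probe that lists AT1G79510 and AT1G16320 as well, and that cannot be assigned to any of the 3 genes. That probe read 0.728, 0.610 and 0.494 on the prors1 arrays, against 0.339, 0.331 and 0.251 on the WT arrays. Its ratio of means was 1.99, and its log2 fold after quantile normalization was 0.20 ± 0.23 (SE). Its lowest prors1 column, at 0.466, was just above its highest WT column, at 0.443. The 2 probes that carry AT2G46220 thus differed widely in the size of their difference, and AT1G79510 and AT1G16320 each had 0 probes of their own to set beside them.

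AT1G16080 was the other bright gene. It read 4.44, 5.21 and 3.93 on the prors1 arrays, against 0.633, 0.460 and 0.599 on the WT arrays. The means were 4.53 ± 0.64 in prors1 and 0.564 ± 0.091 in WT (SD, n = 3 arrays each), an 8.03-fold ratio as deposited. Its lowest prors1 column (3.76) was 5.40 times its highest WT column (0.696). Columns of 1 prors1 array differed by at most 1.09-fold. Of the 6 genes, this one and AT2G46220 had the most similar course over the 6 arrays, with a root mean square difference of 0.29 between their centred log2 profiles, the smallest of the 15 pairs.

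AT4G13680 had the lowest WT values. It read 0.945, 0.794, 0.942, 0.874, 0.674 and 0.582 in prors1 columns 1 to 6. In WT columns 1 to 6 it read 0.0238, 0, 0.000271, 0.0275, 0.0431 and 0.0107. The groups were far apart, the lowest prors1 column being 13.5 times the highest WT column. In prors1 the probe was brighter than 75.8% of the 2908 analysed probes, and in WT than 0.206% of them. The WT side thus holds 1 value listed at 0 and 5 values close to it, and any ratio to them is poorly fixed.

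AT3G50350 resembled AT4G13680 in level. It read 1.15, 1.04, 0.759, 0.641, 0.615 and 0.514 in prors1 columns 1 to 6. In WT columns 1 to 6 it read 0.0674, 0, 0.00557, 0, 0.145 and 0.0539. It was listed at 0 in 2 WT columns, on different arrays. The lowest prors1 column was 3.55 times the highest WT column. Between arrays it was the most variable of the 6 in prors1, with array 1 at 1.94 times array 3.

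AT2G40980 was dim, with even readings in prors1 and uneven ones in WT. It read 0.471, 0.463 and 0.408 on the prors1 arrays, against 0.0539, 0.0600 and 0.0236 on the WT arrays. The means were 0.447 ± 0.035 in prors1 and 0.0458 ± 0.019 in WT (SD, n = 3 arrays each), a 9.76-fold ratio as deposited. The prors1 arrays differed by at most 1.16-fold, the narrowest range of the 6 genes. In WT the columns ran from 0.00918 to 0.0797, and those of array 3, at 0.00918 and 0.0380, were 4.13-fold apart. The lowest prors1 column (0.387) was 4.86 times the highest WT column. Even in prors1 it was brighter than only 45.5% of the analysed probes, and in WT than 2.13%.

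AT1G07040 was the dimmest in prors1. It read 0.318, 0.305, 0.331, 0.389, 0.198 and 0.274 in prors1 columns 1 to 6. In WT columns 1 to 6 it read 0.00210, 0, 0.0808, 0.00739, 0.0962 and 0.0397. The gap between groups was the smallest of the 6, the lowest prors1 column being 2.06 times the highest WT column. The probe was brighter than 25.4% of the analysed probes in prors1 and than 1.38% in WT.

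**Figure D1:**
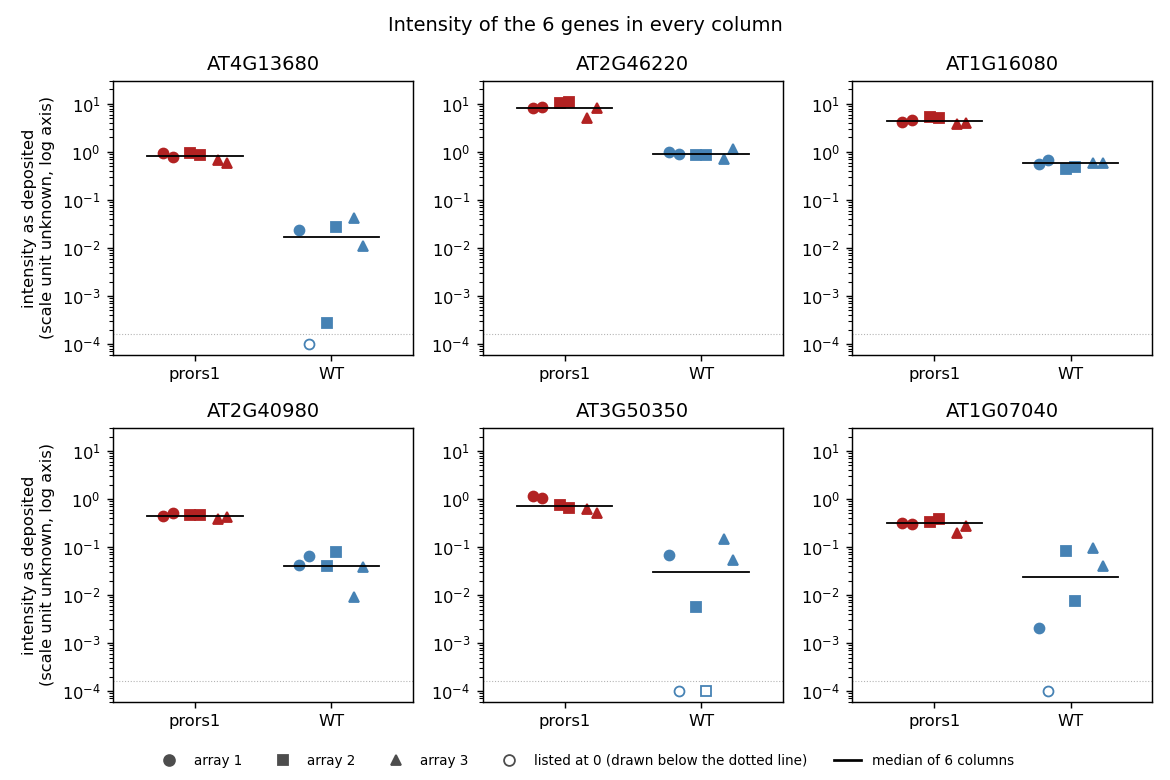
Deposited intensity (log axis, unit unknown) of each gene in the 6 prors1 columns and the 6 WT columns. Symbols mark the array, open symbols columns listed at 0, and lines the median of the 6 columns. For AT2G46220 the prors1 columns span 5.03 to 11.2 and the WT columns 0.705 to 1.15, while AT4G13680, AT3G50350 and AT1G07040 have WT columns listed at 0.

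All prors1 columns stood above all WT columns for 6 of 6 genes, which also held for 39.6% of all analysed probes as deposited. After quantile normalization 6 of 6 genes passed limma's test across all probes (Benjamini-Hochberg adjusted p under 0.05), against 26.3% of the 2908 probes called in either direction, 12.8% of them higher in prors1 and 13.5% lower. Since the genes were chosen from this contrast, these counts say nothing further about them.

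With quantile normalization the log2 folds of prors1 over WT were 4.79 ± 0.64 for AT4G13680, 3.50 ± 0.88 for AT3G50350 and 3.31 ± 0.999 for AT1G07040 (limma's moderated SE, 3 arrays per group, columns at 0 left out). They were 3.10 ± 0.29 for AT2G46220, 2.62 ± 0.28 for AT1G16080 and 2.36 ± 0.36 for AT2G40980. Their median was 3.20, beside a median of -0.06 over all 2908 probes. Among the 582 analysed probes that name 1 gene they ranked 1, 2, 3, 4, 7 and 9, ranks that follow from the choice and in part from WT values near 0. Over all 2908 probes, AT1G07040 ranked 11 with quantile normalization and 9 without normalization. With a constant of 0.119 added to the unnormalized WT values it ranked 382. In the same 3 settings AT2G40980 ranked 29, 21 and 121, AT2G46220 12, 33 and 5, and AT1G16080 25, 47 and 8. The largest SEs belong to the 3 genes with WT columns at 0. In this order, AT3G50350 and AT1G07040, AT1G07040 and AT2G46220, and AT1G16080 and AT2G40980 differed by less than their combined SE. AT4G13680 exceeded AT3G50350 by 1.29, with a combined SE of 1.09, and AT2G46220 exceeded AT1G16080 by 0.48, with a combined SE of 0.40. No difference between folds was tested.

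A constant added to all prors1 values would raise dim probes by a large factor and bright ones hardly, so the genes were set against one. Over the 1454 dimmer of the analysed probes, prors1 columns exceeded the WT mean by a median of 0.0868 to 0.141. Over all analysed probes the median excess was 0.109 to 0.197 per column. The excess was not one constant: by brightness it ran from 0.0521 in the dimmest of 8 classes to 0.325 in the seventh, and was -0.00138 in the brightest. Classes were formed on the mean over the columns of both groups, so a gene's own prors1 values help to place it. AT2G46220 and AT1G16080 lie in that brightest class, where the median ratio of prors1 over WT was 0.999. Their WT means, 0.910 and 0.564, were below the lowest mean in that class (1.05). In the next class down the median ratio was 1.53. Which ratio applies to these genes thus depends on the placement, and classes by WT values alone were not tested.

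The constants were applied to the deposited values without normalization, so folds without normalization are the ones to set beside them. Without normalization or a constant, AT2G46220 had a log2 fold of 3.22 ± 0.29 and AT1G16080 of 3.01 ± 0.27 (SE). Both bright genes kept most of that when a constant was allowed for. With the mean constant of the dimmer probes (0.119) added to every WT value above 0, AT2G46220 had a log2 fold of 3.04 ± 0.25 and AT1G16080 of 2.73 ± 0.24 (SE). With the mean of all analysed probes (0.158) they were at 2.99 ± 0.25 and 2.65 ± 0.23. Their lowest folds came with median scaling, at 2.34 for AT2G46220 and 2.13 for AT1G16080.

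The dim genes changed more. Without normalization or a constant, the log2 folds were 6.14 for AT4G13680, 4.55 for AT3G50350, 3.55 for AT2G40980 and 4.33 for AT1G07040. With 0.119 added to WT the log2 fold of AT4G13680 was 2.50 ± 0.24 and that of AT3G50350 was 2.14 ± 0.30. AT2G40980 was at 1.45 ± 0.23 and AT1G07040 at 0.96 ± 0.26. With 0.158 added they were at 2.14, 1.84, 1.14 and 0.62. WT columns listed at 0 received no constant and were left out of all these folds. The gap between the lowest prors1 and the highest WT column was 0.539 for AT4G13680, 0.369 for AT3G50350 and 0.308 for AT2G40980. Each was above the largest median excess of any column over all analysed probes (0.197). Single probes varied around such medians. In the brightness class of AT4G13680 and AT3G50350, the difference of group means had a median of 0.243 and an upper decile of 0.504. In the class of AT2G40980 these were 0.180 and 0.338. The genes' own differences were 0.784, 0.741 and 0.402. In the class of AT1G07040 the median and upper decile were 0.112 and 0.254, and its own difference was 0.265. For AT1G07040 the gap between the lowest prors1 and the highest WT column was 0.102. That was below the median excess over all analysed probes in every prors1 column (0.109 to 0.197). It was also below the constants that prors1 columns 1 to 4 showed over the dimmer probes (0.125 to 0.141). Only those of columns 5 and 6 over the dimmer probes (0.0868 and 0.0916) were smaller. These are unlike measures: a gap starts from the highest WT column and the median excesses from the WT mean. A gap is therefore the smaller measure by construction. The WT mean of AT1G07040 was 0.0377 and its lowest prors1 column 0.198.

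**Figure D2:**
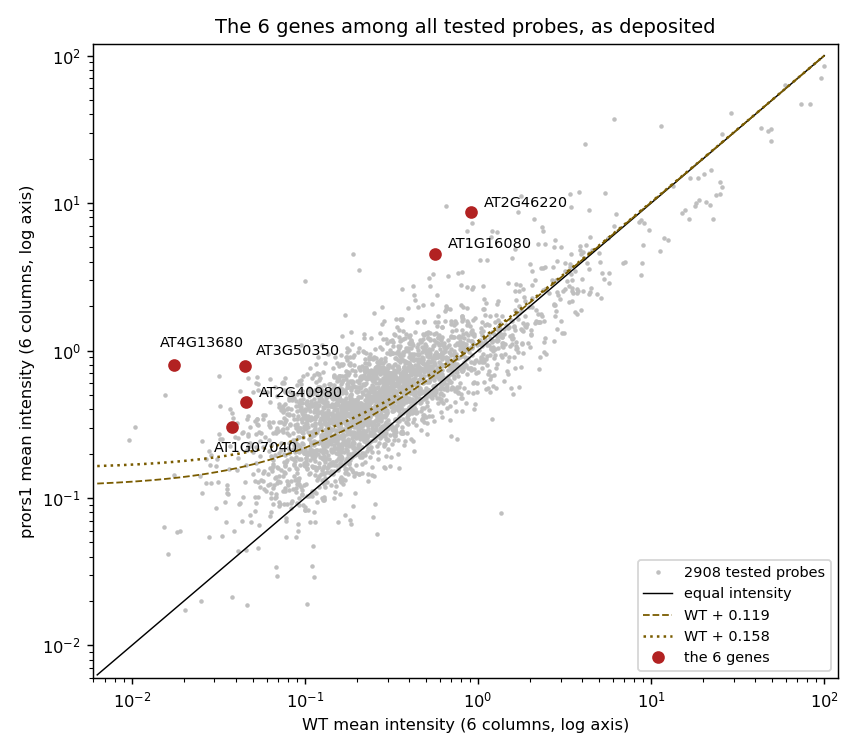
Mean prors1 intensity against mean WT intensity (6 columns each, log axes) for the 2908 analysed probes in grey and the 6 genes in red. The solid line marks equal intensity, the dashed and dotted lines WT plus 0.119 and plus 0.158. AT2G46220 and AT1G16080 stand well above all lines, and AT1G07040 (0.303 in prors1) is the closest of the 6 to the dotted one.

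Taking the constant off the prors1 columns instead left the folds high, since the WT values stay near 0. The log2 folds were then 5.91 for AT4G13680, 4.30 for AT3G50350, 3.60 for AT1G07040 and 3.10 for AT2G40980. Each was lower than without normalization or a constant. The SE of AT1G07040 widened to 1.23, and its call ended. That call also ended with the larger constant, taken off prors1 or added to WT, and that of AT3G50350 with the larger constant taken off prors1.

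**Figure D3:**
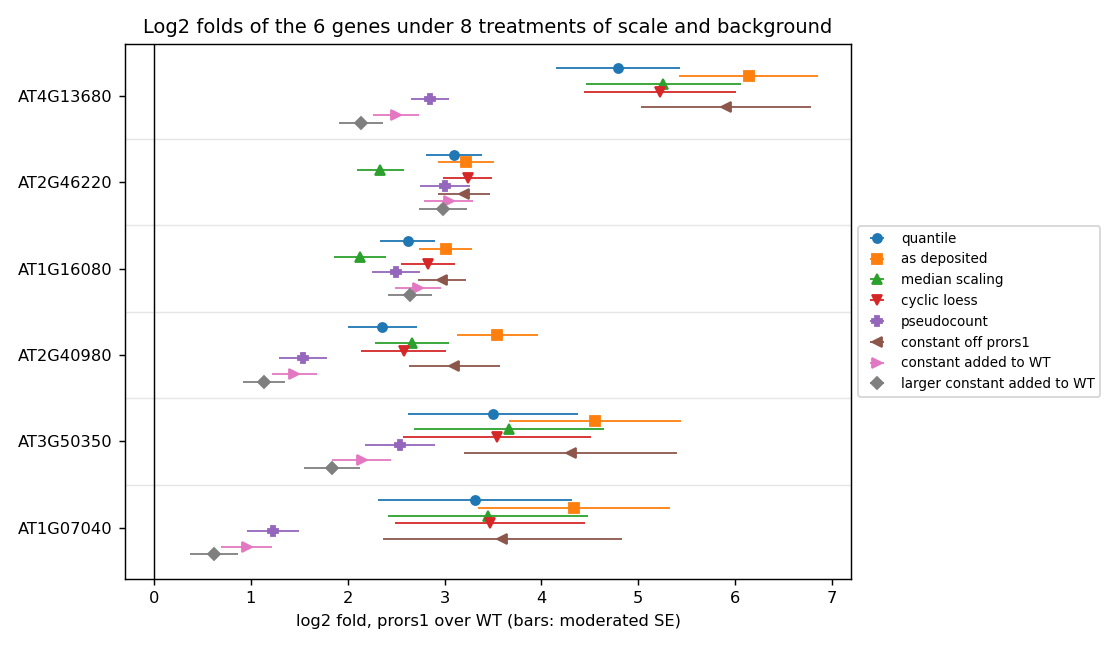
Log2 folds of prors1 over WT with their moderated SE for the 6 genes under 8 treatments of scale and background. The constants were applied without normalization. The markers of AT2G46220 and AT1G16080 lie between 2.13 and 3.24, those of AT4G13680 between 2.14 and 6.14, and those of AT1G07040 between 0.62 and 4.33.

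AT4G13680 had the largest fold of the 6 in 17 of the 20 settings that measured all of them. AT2G46220 had it in the other 3, namely with a pseudocount and with either constant added to WT. The order of the others also changed with the scaling and with single arrays left out. All had a positive log2 fold in every setting run that measured them, a sign that follows in large part from their choice.

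Among fits with 1 array left out, the fold of each dim gene moved most without a WT array. Without WT array 2, which holds the reading of 0.000271, the log2 fold of AT4G13680 was 3.93, and without WT array 3 it was 5.28. AT3G50350 was at 2.33 without WT array 2 and at 4.16 without WT array 3. AT1G07040 was at 2.03 without WT array 1 and at 4.42 without WT array 3. AT2G40980 was at 1.94 without WT array 3, its dimmest WT array. AT2G46220 stayed between 2.89 and 3.31, and AT1G16080 between 2.38 and 2.76.

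**Figure D4:**
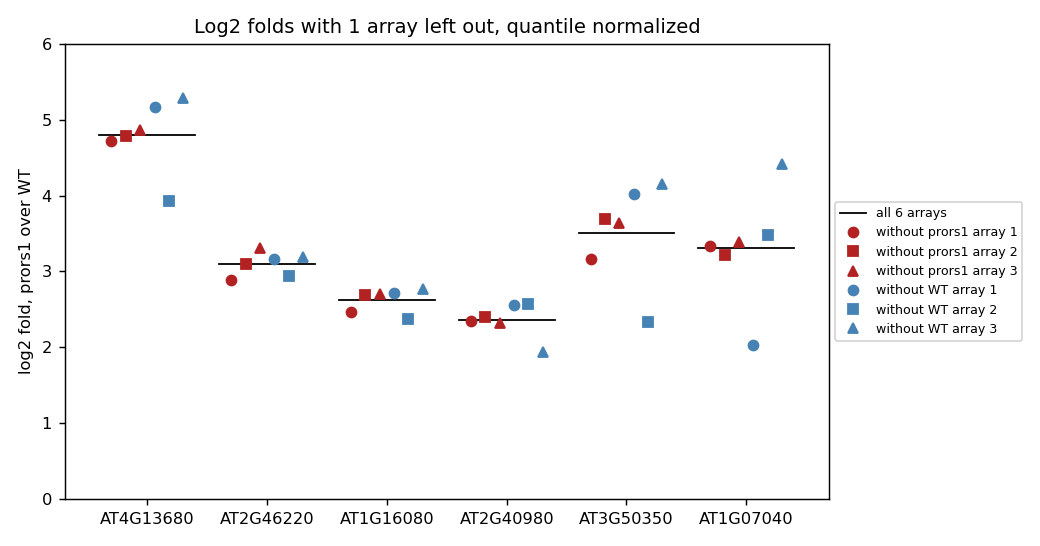
Log2 folds (quantile normalized) of each gene with all 6 arrays, as lines, and with 1 array left out, as points. The points of AT2G46220 span 2.89 to 3.31 and those of AT1G16080 2.38 to 2.76, while those of AT1G07040 span 2.03 to 4.42.

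AT3G50350 did not pass the test without prors1 array 1, 2 or 3, nor did AT1G07040 without any of these or without WT array 2. The other 4 genes passed in each of these 6 fits, in which 6.81% to 9.63% of all probes were called higher. On normalized values the spread was wider in WT for the dim genes: the SD over 3 arrays on the log2 scale was 0.17 in prors1 and 2.41 in WT for AT1G07040, and 0.58 in prors1 and 2.04 in WT for AT3G50350. Of the bright genes, AT1G16080 was also wider in WT, at 0.26 in prors1 and 0.42 in WT, and AT2G46220 was not, at 0.42 in prors1 and 0.27 in WT. This direction depends on the scale. As deposited, the SD over arrays was larger in prors1 for each of the 6 genes. It was 0.063 in prors1 and 0.034 in WT for AT1G07040, and 0.275 and 0.049 for AT3G50350.

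As deposited, prors1 array 3 was the lowest of the prors1 arrays for 6 of 6 genes. It was also the lowest for 51.7% of the analysed probes, and its columns had the lowest medians of the prors1 columns, 0.407 and 0.409. After normalization it was the lowest for 4 of the 6 and for 27.1% of 2894 probes, with AT2G40980 and AT3G50350 lowest on array 2. The difference between the genes and all probes in this was not tested.

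Position on the array was compared through the probe numbers. The 55 to 70 analysed probes within 50 numbers of each gene's probe had median log2 folds of -0.23 to 0.26. Around AT4G13680, AT2G46220, AT3G50350 and AT1G07040, 0 of these neighbours had a larger fold than the gene, and around AT1G16080 and AT2G40980 there were 1 and 2. Such low counts follow largely from choosing genes with high folds, and say nothing about position. How far probe numbers follow position on the array was not tested. AT2G40980 had the highest surrounding median (0.26), and with a running median along the probe numbers removed its log2 fold was 2.12. On the chromosomes, 3 genes within 10 protein-coding genes of one of the 6 had a probe of their own. They were AT2G46190 (log2 fold 0.07) and AT2G46300 (0.03) near AT2G46220, and AT3G50270 (-0.02) near AT3G50350, and none of the 3 passed the test (limma adjusted p = 0.901, 0.944 and 0.971).

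The genes with the most similar course over the 6 arrays were sought among 566 other probes that name 1 gene. The measure was the root mean square difference of log2 profiles centred on each probe's mean. AT3G16310 was nearest to AT1G16080 (0.36), chr31 (AT1G05490) to AT2G40980 (0.44) and AT1G44830 to AT2G46220 (0.51). AT3G20150 was nearest to AT1G07040 (0.96). AT4G31470 was nearest to AT3G50350 (1.05) and to AT4G13680 (1.38), both of them loose matches. To the mean profile of the 6 genes, AT3G16310 (0.58), AT4G19900 (0.59) and AT1G44830 (0.61) were nearest. Since the 6 were chosen for one contrast, likeness to them follows in part from that choice.

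Lacking a name did not set the 6 genes apart on this array, where 597 of the 689 genes have no symbol beyond the locus identifier. Of the 495 other analysed genes of that kind, 67 rose (13.5%) and 61 fell (12.3%) in prors1, with a median log2 fold of -0.06. Of the 78 analysed genes with a symbol, 11 rose (14.1%) and 11 fell (14.1%), with a median of 0.0044. These shares lie near those of all probes, 12.8% higher and 13.5% lower, and the difference between the lists was not tested. Among the other unnamed genes that passed the test, AT4G19900 and AT4G17070 rose most, by 2.72 ± 0.35 and 2.47 ± 0.41 on the log2 scale (SE, limma adjusted p = 0.00369 and 0.00676). AT3G20150 had a larger log2 fold (2.78) and did not pass (limma adjusted p = 0.187). Of those that passed, AT3G49740 and AT5G05330 fell most, with log2 folds of -4.47 ± 0.44 and -3.32 ± 0.46 (limma adjusted p = 0.00281 and 0.00429), each listed at 0 in 2 prors1 columns that its fold leaves out. For AT3G49740 these were both columns of prors1 array 2, so its fold rests on prors1 arrays 1 and 3 only. Of 7 genes known to rise in darkness or sugar shortage, 0 had a probe of their own.

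All counts over the probes depend on the scaling. Of the 764 probes called with quantile normalization 48.7% were higher in prors1, against 93.8% as deposited, 70.3% with the constant taken off prors1 and 63.9% with it added to WT. The 6 genes, chosen as higher in prors1, were positive under each of these.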

How the data were processed

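Total RNA of 12 samples was measured on single-channel arrays. The authors deposited intensities that, judged from the values, are linear. How they were scanned, background corrected or scaled is not stated in the labels, and 0 columns had no sample. Probe names come from the platform annotation of 2016 and the TAIR10.1 gene table. Of 3439 probes, 692 name 1 gene, 690 of these matched the table, 870 name several and 1877 none. The brightest probe of a gene was used.

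Values of 0 were treated as missing. The rest were log2 transformed, quantile normalized and averaged over the columns of an array. Probes above 0 in at least 4 of 6 columns per group, 2908 in all, were fitted with limma 3.58.1 (R 4.3.3; lmFit and eBayes, two-sided, Benjamini-Hochberg over all probes). The SE is moderated. An exact rank test of 3 arrays against 3 was not used. The procedure was tested on simulated data.

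Alternatives covered scaling, constants, a pseudocount of 0.0595, filters, replicate blocks, a running median over 50 probe numbers on either side and leaving out arrays. The constants were applied to the deposited values without normalization. A value that a constant took below the lowest deposited value above 0 was set to that value. Values of 0 received no constant and stayed missing. The members and lists were chosen with earlier results of these data known. All 6 members were named, with the nearest profile of each and the 2 largest rises and falls among other unnamed genes past the test. Those lists were to be drawn by gene description, which the tables do not hold, so the absence of a symbol was used. Builds of the probes are not named, so coordinates are left out, and sequences are not shown.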

Additional observations from a re-analysis of the deposited data

How the results depend on the processing

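The log2 folds of the 6 genes stayed positive in each setting run that measured them. Since the genes were chosen as higher in prors1, this sign was largely given in advance. The larger constants and the ratio of mean intensities were chosen after the data were seen. The count of called probes was 764 (372 higher, 392 lower in prors1), and the median log2 fold of the 6 genes 3.20. As deposited, 1332 probes were called (1250 higher, 82 lower) and the median of the genes was 3.94. With the constant taken off prors1 174 were lower, and with the larger one 497 were called, 203 of them lower. With the constant added to WT the median of the genes was 2.32, with the larger one 1.99 and with the pseudocount 2.52. Restricting to probes above 0 in all 12 columns left 3 of the 6 genes. All 3 were called, as were 28.8% of the 2724 probes there (13.4% higher, 15.4% lower). The median of these 3 genes was 2.62. Causes beyond the fewer genes there were not tested. Without a filter on low values AT1G07040 was not called. With 6 columns as separate samples 1443 were called (644 higher, 799 lower; median of the genes 2.95), where columns of 1 array raise the degrees of freedom by construction. Leaving out 1 array gave 393 to 562 called probes, 198 to 280 higher, 180 to 306 lower, 4 to 6 of the genes called and a median of 2.76 to 3.67. The counts fell most without prors1 array 2 (393), WT array 3 (446), prors1 array 1 (465) and WT array 1 (486). With the array number as a replicate block 840 were called, and with the replicate number of the titles as a block on single columns 1532 (686 higher, 846 lower; median 2.95). All 6 genes were called with either block, as were 28.9% and 52.7% of all probes. Deviations of same-numbered arrays correlated at 0.0801 to 0.231, and of differently numbered arrays at -0.172 to -0.0251. For columns these were 0.0832 to 0.261 and -0.153 to 0.103. In all, 6 of 6 columns and 3 of 3 arrays correlated best with their own number, a hint of pairing from the data. Pairs were not assumed in the main fit, which thus leaves this hint out. Over all settings, 102 folds of single genes moved by less than that gene's own spread between arrays and 21 by more. Some of the 102 repeat the main fold by construction, as with the array number as a block. Where that spread was wide, large moves count among them. AT1G07040, with an SD of 2.41 in WT, is counted so at 2.03 and at 4.42. Intensities near 0 limit the dim genes.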
